A study of Homo sapiens with 38 samples.

Results

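Sorafenib and Regorafenib are oral multikinase inhibitors built on the same diaryl urea scaffold, and Regorafenib differs from Sorafenib by a fluorine atom on the central phenyl ring. The pair was compared directly, without the vehicle, in genome-wide CRISPR/Cas9 knockout screens of hepatocellular carcinoma (HCC) cells. The libraries were chosen by their labels. They are the 2 Regorafenib and 2 Sorafenib libraries of Hep3B and the 2 Regorafenib and 2 Sorafenib libraries of SNU-398, that is 8 of 32 guide-count libraries and of 38 samples in all. Hep3B and SNU-398 are established human HCC lines, and both expressed Cas9 and carried the TKOv3 library, which holds several guides per gene. Each line was kept for 14 days with 1 of 6 inhibitors, each at its IC20, the concentration that lowers viability by 20%. The other groups were a day 0 sample, T0, and a day 14 sample, T1, which is taken here as the vehicle group. Both compounds were therefore matched by time and by nominal IC20, but equal effect over the 14 days is not shown by these files, and the sources used here give neither the molar concentrations nor whether the Cas9 cells were single clones. Nothing in the labels says that the 2 libraries of a group came from separate cultures, so every p-value rests on a spread that may be technical and covers no other cultures.

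Both compounds inhibit receptor tyrosine kinases of the vascular endothelial and platelet-derived growth factor families, together with KIT, RET and the RAF kinases that feed the MAP kinase cascade. In a pooled knockout screen each guide tags the cells whose gene it cuts, so a guide that is scarcer under a drug marks cells that were lost or grew more slowly there. Ferroptosis, a form of iron-dependent cell death by lipid peroxidation, is held back by glutathione peroxidase 4 (GPX4), whose active site needs the amino acid selenocysteine. Phosphoseryl-tRNA kinase (PSTK) and SEPSECS carry out successive steps of selenocysteine synthesis on its tRNA.

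The Hep3B libraries held 26398422 and 14938032 counts under Regorafenib and 22475286 and 13209868 under Sorafenib. The SNU-398 libraries held 23374560 and 13940260 counts under Regorafenib and 21220450 and 21071624 under Sorafenib. Counts were concentrated on few guides, since only 25811 of 66890 guides in Hep3B and 29793 of 66582 guides in SNU-398 reached a mean of 30 counts over the 4 libraries. At least 3 such guides were left for 2498 of 18029 genes in Hep3B and 3564 of 18036 genes in SNU-398. Guides without a count were more frequent under Sorafenib, at 50.5% to 52.8% against 43.8% to 49.1% under Regorafenib in Hep3B, and at 40.9% in each Sorafenib library against 27.9% and 29.4% under Regorafenib in SNU-398. The share of guides lost thus moved with the compound in both lines, and its part in the gene results was not tested.

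The guide populations under the pair, which differs by 1 fluorine atom, stood far apart. Over guides with a mean of at least 30 counts, the root mean square log2 difference between Regorafenib and Sorafenib was 1.31 in Hep3B, the 6th largest of the 21 pairs of day 14 groups, and 1.09 in SNU-398, the 4th largest of 21. The 2 libraries of a group differed by 0.270 to 0.320 in Hep3B and by 0.276 to 0.305 in SNU-398, apart from Erastin there (0.831 between its replicates 1 and 2), so the distance between the compounds was well above the distance between libraries. In Hep3B the Regorafenib group was nearest to T1, at 0.846, and to Palbociclib, at 0.851, whereas Sorafenib and T1 stood 1.41 apart, the largest of the 21 distances. Over guides with a mean of at least 100 counts these orders turned, with Regorafenib at 0.643 from Palbociclib and 0.666 from T1, and Sorafenib at 1.15 from Erastin and 1.13 from T1. In SNU-398 Regorafenib was nearest to Lenvatinib, another multikinase inhibitor, at 0.654, and Sorafenib was nearest to the CDK4/6 inhibitor Abemaciclib, at 0.743. These pairs share libraries and are a description without a test. In SNU-398 the Regorafenib libraries also stood nearer to T0, with correlations of log counts of 0.941 to 0.943 against 0.901 to 0.906 with T1, while the Sorafenib libraries reached 0.885 to 0.886 with T0. The Lenvatinib libraries shared this, with 0.922 to 0.926 against T0 and 0.887 to 0.892 against T1. The compound and this split between libraries cannot be told apart in that line.

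**Figure D1:**
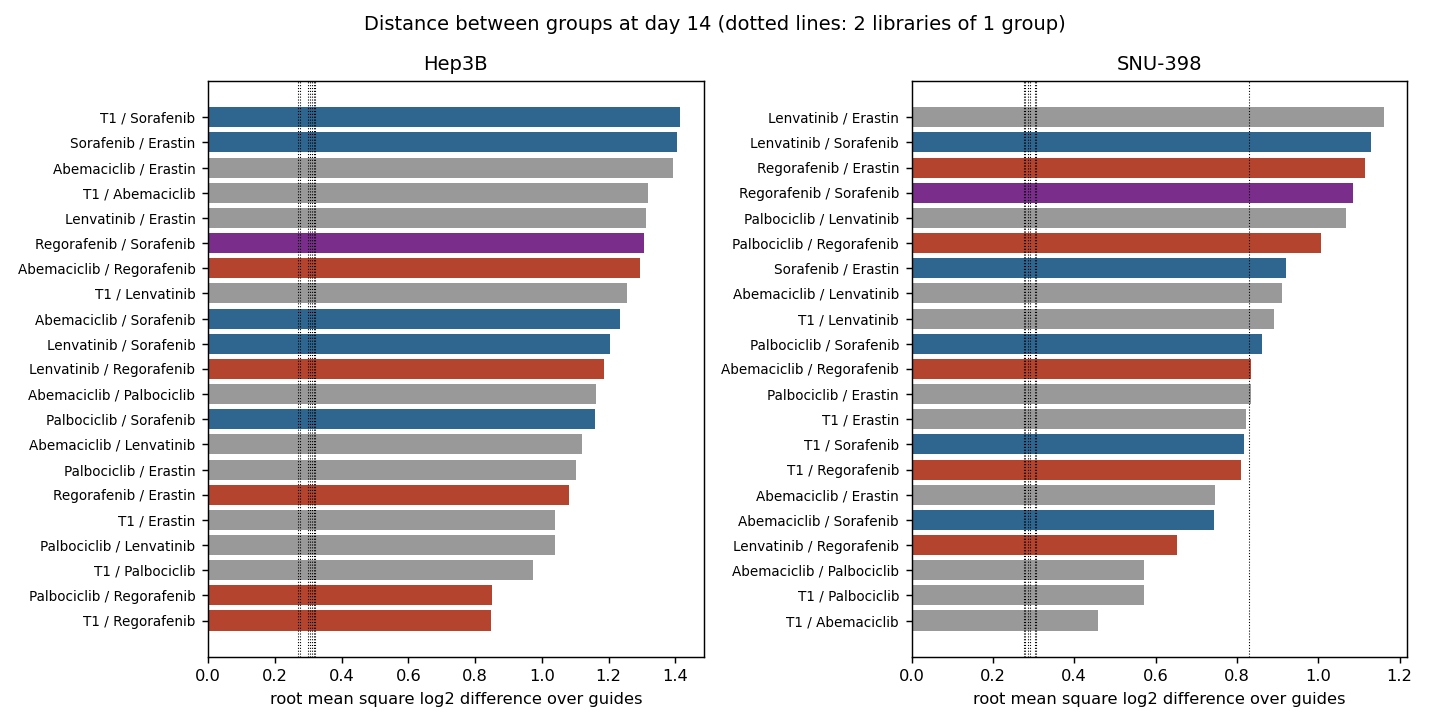
Root mean square log2 difference in guide abundance (horizontal axis, log2 units) for the 21 pairs of day 14 groups in Hep3B and SNU-398, over guides with a mean of at least 30 counts; purple marks Regorafenib with Sorafenib, red and blue the other pairs of either compound, and dotted lines the 2 libraries of 1 group. The purple bar reaches 1.31 in Hep3B and 1.09 in SNU-398, past the dotted lines of both lines, of which the one at 0.831 in SNU-398 is Erastin.

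Genes were scored by NormZ, which sums the guide-level log2 ratios of Regorafenib to Sorafenib after scaling them by the spread of guides of like abundance. A positive NormZ means that the guides of a gene were more abundant under Regorafenib, and a gene passed at a one-sided p under 0.01. In Hep3B 232 genes (1.29% of those tested) were higher and 317 (1.76%) lower under Regorafenib. In SNU-398 114 genes (0.632%) were higher and 322 (1.79%) lower. After adjustment over all genes at 0.05, 6 higher and 27 lower genes remained in Hep3B, and 0 higher and 14 lower genes in SNU-398, where 713 genes were higher by NormZ at an unadjusted p under 0.05 and edgeR called 5993. edgeR's quasi-likelihood test on summed guide counts called 77.3% of genes in Hep3B (39.8% higher and 37.5% lower) and 66.4% in SNU-398 (34.2% higher and 32.1% lower), and the lines differed by the same test for 67.2% of genes. It also called 50 of 60 tested guides against EGFP, LacZ and luciferase in Hep3B and 62 of 85 in SNU-398, guides that cut no human gene. Fold changes and intervals from edgeR are therefore given below as the spread between libraries, and passing genes are those of NormZ.

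The lines gave largely separate gene lists. Across 18025 genes the NormZ values of Hep3B and SNU-398 had a Pearson r of 0.0108, a value across genes, which are not independent replicates. Over the 1942 genes with 3 well-counted guides in both lines r was 0.0495. Passing in both lines in the same direction were 7 genes (0.0388% of those tested), of which 1 was higher and 6 were lower under Regorafenib. The 6 shared lower genes were 1.89% of the Hep3B list and 1.86% of the SNU-398 list, beside the 1.79% of all genes that were lower in SNU-398. The single shared higher gene, PSTK, was 0.431% of the Hep3B list, beside the 0.632% of all genes that were higher in SNU-398. Another 9 genes (0.0499%) passed in both lines in opposite directions, a count close to that in the same direction. The shares of each list that recurred in the other line were thus near the background or, for opposite directions, 3.45% of the 232 Hep3B genes that were higher, beside the 1.79% of all genes that were lower in SNU-398.

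**Figure D2:**
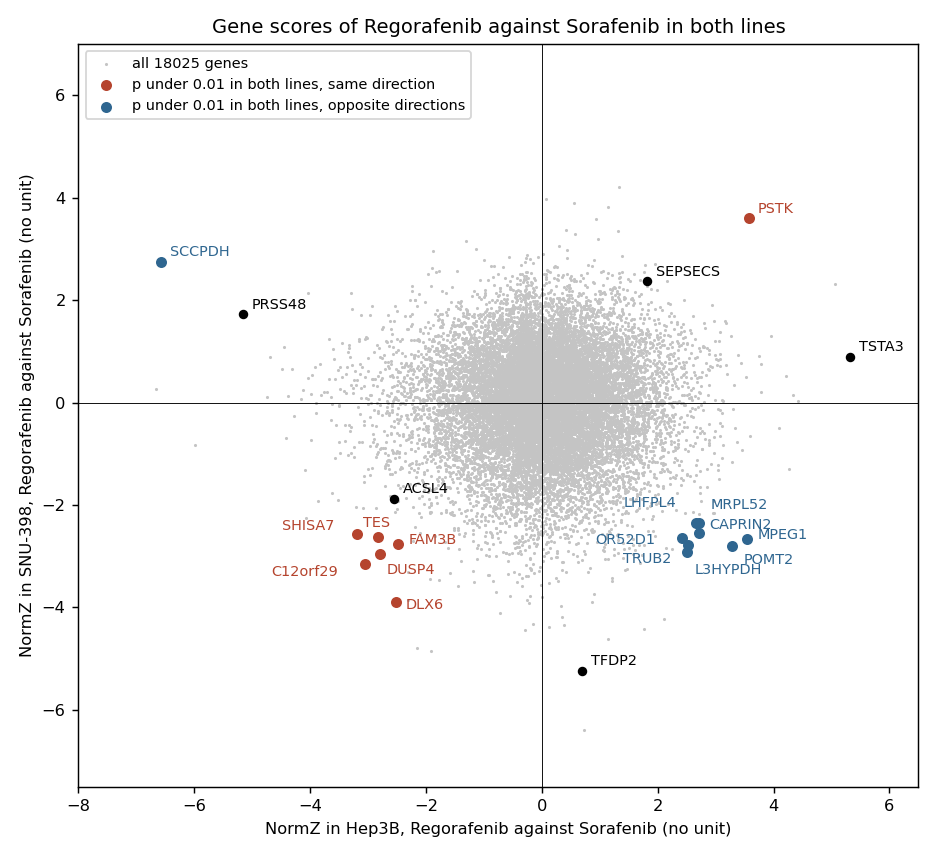
NormZ of Regorafenib against Sorafenib for each gene in Hep3B (horizontal axis) and in SNU-398 (vertical axis), without unit, with the genes that passed in both lines in red for the same and blue for opposite directions, and 5 others named in black. The cloud shows no slope (r 0.0108 over 18025 genes), and PSTK, at 3.57 and 3.60, is the only red point with positive values.

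PSTK was the only gene that passed NormZ as higher under Regorafenib in both lines, and this depended on the setting. When guides were ordered by the mean count of both compounds, FUT7, PFKFB4 and ZNF407 also passed as higher in both. With guides under a mean of 30 counts removed, SPSB1 passed as higher in both and PSTK did not. In Hep3B the PSTK guides summed to 300 and 317 CPM under Regorafenib and to 219 and 217 under Sorafenib. CPM are counts scaled to a common library size among the 4 libraries of a line. In SNU-398 the PSTK guides summed to 299 and 300 under Regorafenib and to 110 and 102 under Sorafenib. Both Regorafenib libraries lay above both Sorafenib libraries in each line. NormZ was 3.57 in Hep3B and 3.60 in SNU-398, the 13th and 5th highest values, and neither passed adjustment over all genes, at a false discovery rate of 0.245 and 0.492. The log2 difference was 0.50 ± 0.037 (SE) in Hep3B, with a 95% interval of 0.42 to 0.57, and 1.5 ± 0.052 in SNU-398, with an interval of 1.40 to 1.61. On the NormZ scale the lines differed little (z = 0.018), whereas the edgeR log2 difference was 1.0 larger in SNU-398, with an interval of 0.87 to 1.13. That line difference rested on 1 guide, and it was -0.26 when the most abundant guide of each gene was left out.

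Most PSTK counts came from 1 guide, 96.6% of them in Hep3B and 95.6% in SNU-398. The 3 guides with enough counts all had higher abundance under Regorafenib. In Hep3B their log2 ratios were 0.59, 0.90 and 3.10, and in SNU-398 they were 1.52, 1.32 and 1.47. The first value in each line belongs to the abundant guide. Guides against EGFP, LacZ and luciferase ranged from -2.14 to 2.71 in Hep3B and from -2.82 to 1.51 in SNU-398 (5th to 95th percentile), so 1 of the 3 PSTK guides in each line lay outside the spread of guides without a human target. Without the most abundant guide NormZ was 3.36 in Hep3B but 0.26 in SNU-398, and with guides under a mean of 30 counts removed it was 2.04 in Hep3B and 3.73 in SNU-398. The result thus lost its pass in 1 line under either choice, and NormZ without the other guides was not computed. Beside the other groups, in plain CPM of the library total, PSTK had means of 322, 208 and 461 under Regorafenib, Sorafenib and T1 in Hep3B. The corresponding means in SNU-398 were 301, 105 and 397. Both compounds stood below T1, as did every other inhibitor group, and Regorafenib lay between T1 and Sorafenib in each line. In Hep3B the other means were 281 under Erastin, 278 under Palbociclib, 263 under Lenvatinib and 192 under Abemaciclib, the last below Sorafenib. In SNU-398 Sorafenib had the lowest mean.

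**Figure D3:**
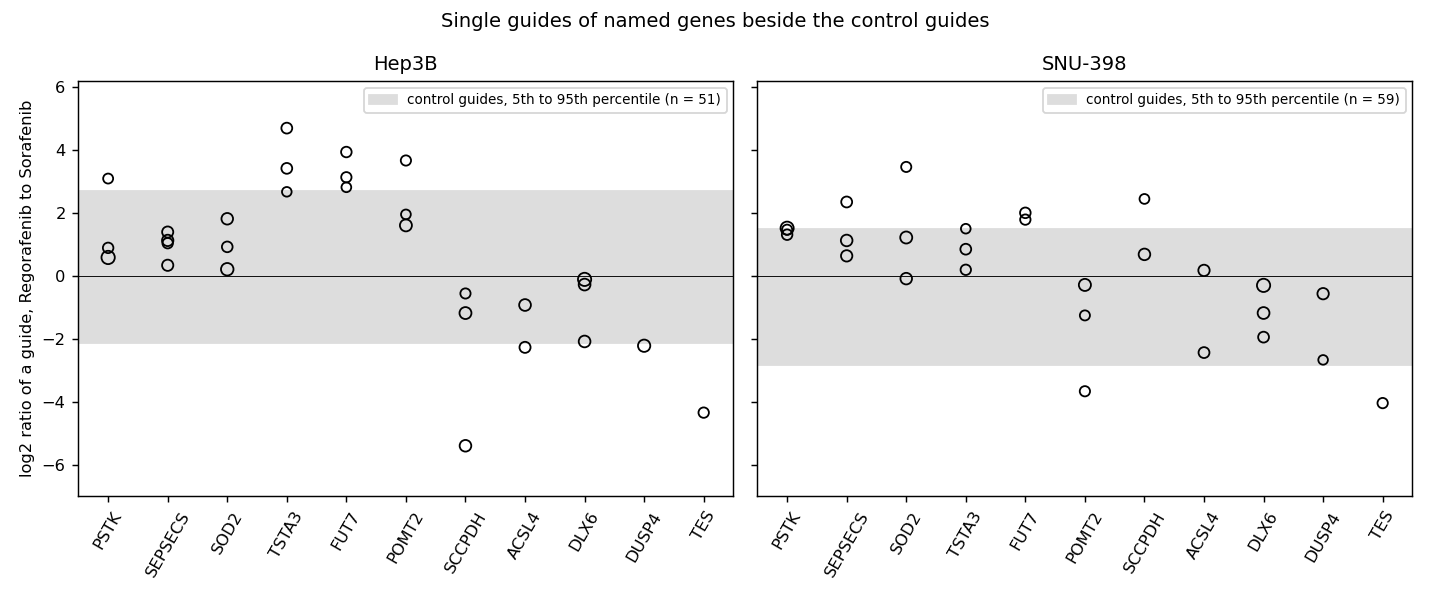
Log2 ratio of Regorafenib to Sorafenib (vertical axis) for single counted guides of 11 named genes in Hep3B (left) and SNU-398 (right), each circle a guide, larger with more counts, and grey the 5th to 95th percentile of control guides. The PSTK circles lie above 0 in both lines, from 0.59 to 3.10 in Hep3B and from 1.32 to 1.52 in SNU-398, partly inside the grey band.

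Few other genes of the selenocysteine machinery passed by NormZ. Of its 10 genes, 1 passed in Hep3B (PSTK) and 2 passed in SNU-398 (PSTK and SEPSECS), all higher under Regorafenib, and none passed as lower. Over all genes 1.29% were higher and 1.76% lower in Hep3B, and 0.632% and 1.79% in SNU-398. The median NormZ was 0.30 in Hep3B and -0.22 in SNU-398, beside -0.044 and 0.054 over all genes. By edgeR 7 of 9 tested genes were higher and 0 lower in Hep3B, beside 39.8% and 37.5% of all genes, or 77.3% in either direction. The median log2 difference there was 0.82 beside 0.034 over all genes. In SNU-398 2 were higher and 4 lower of 10, beside 34.2% and 32.1% of all genes, with a median of -0.093 beside 0.018. SEPSECS, which acts after PSTK, had 58.5 and 49.0 CPM under Regorafenib and 30.7 and 28.7 under Sorafenib in Hep3B, with a NormZ of 1.82 that did not pass. In SNU-398 it had 61.6 and 62.5 CPM under Regorafenib and 25.8 and 28.8 under Sorafenib, with a NormZ of 2.37 that passed. The Regorafenib libraries were above the Sorafenib libraries in both lines, with log2 differences of 0.86 ± 0.090 (SE) and 1.18 ± 0.085. In plain CPM its means under Regorafenib, Sorafenib and T1 were 56.2, 28.3 and 77.4 in Hep3B and 62.5, 27.0 and 68.2 in SNU-398. EEFSEC, the elongation factor that delivers selenocysteine to the ribosome, had NormZ values of 0.22 and -0.14.

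Among the 23 selenoproteins, SEPP1, which carries selenium in plasma, was higher in Hep3B at 2.88, and the glutathione peroxidase GPX2 was lower at -2.36. In SNU-398 DIO3, a deiodinase of thyroid hormone, was lower at -2.73, and these were the only selenoproteins to pass. Over all genes 3.05% passed in either direction in Hep3B and 2.42% in SNU-398. GPX4 itself had 11.3 and 10 CPM under Regorafenib and 13 in each library under Sorafenib in Hep3B. In SNU-398 it had 13.7 and 12.4 CPM under Regorafenib and 14.5 and 16.2 under Sorafenib. The Sorafenib libraries were slightly above the Regorafenib libraries, but neither line passed, and the log2 difference had intervals of -0.60 to 0.05 in Hep3B and -0.52 to 0.06 in SNU-398. TXNRD1, the selenoprotein that reduces thioredoxin, had NormZ values of 0.60 and 1.96, and neither passed.

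**Figure D4:**
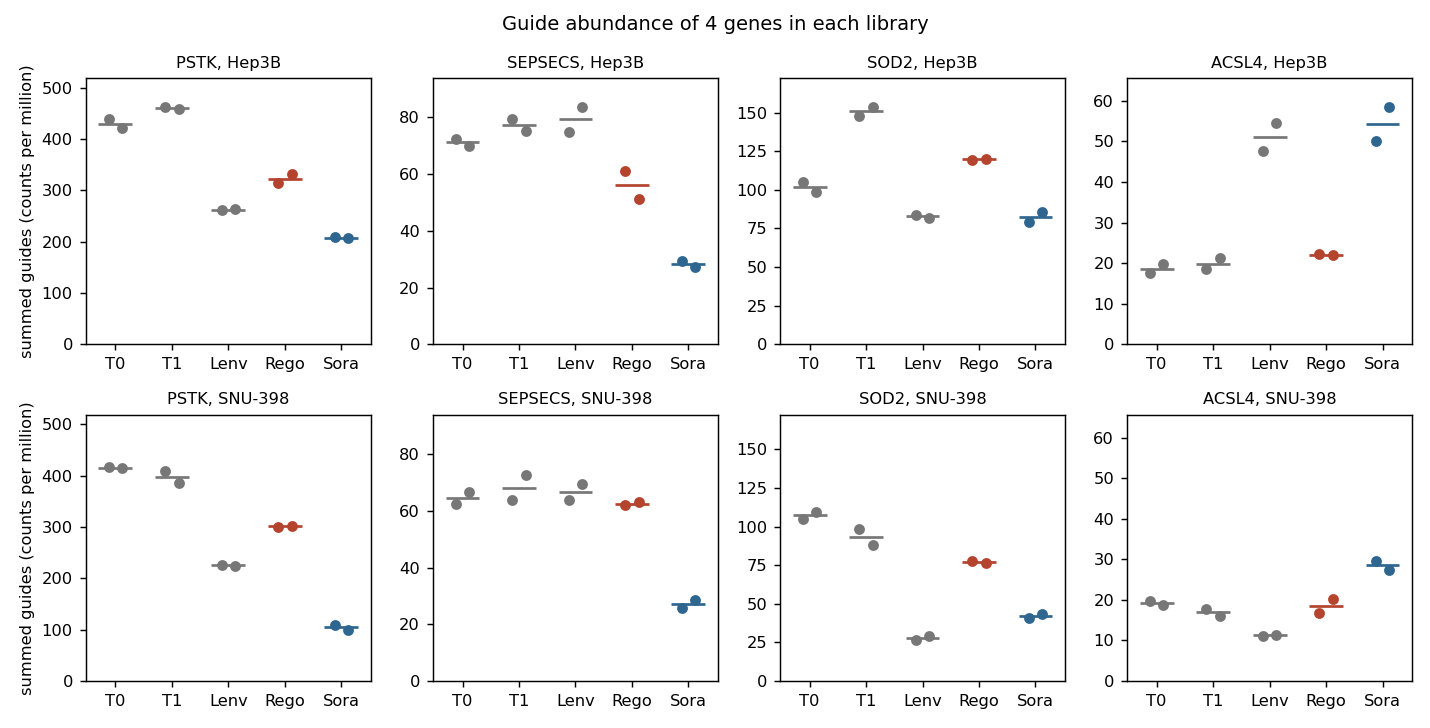
Summed guide abundance (vertical axis, CPM of the library total, from 0) of PSTK, SEPSECS, SOD2 and ACSL4 under T0, T1, Lenvatinib, Regorafenib (red) and Sorafenib (blue), with Hep3B above SNU-398, 1 point per library and a line at the mean of 2. PSTK lies at means of 322, 208 and 461 under Regorafenib, Sorafenib and T1 in Hep3B and at 301, 105 and 397 in SNU-398.

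Genes of ferroptosis outside selenium metabolism gave scattered results. ACSL4, which loads membranes with oxidizable fatty acids and is needed for ferroptosis, was lower under Regorafenib in Hep3B, with 21.2 and 21.0 CPM against 52.5 and 61.5 under Sorafenib and a NormZ of -2.55. In SNU-398 it had 16.5 and 20.1 CPM against 29.9 and 27.8, and its NormZ of -1.88 did not pass. The libraries did not overlap in either line, and the log2 differences were -1.42 ± 0.095 (SE) and -0.67 ± 0.12. In plain CPM the ACSL4 means under Regorafenib, 22.1 in Hep3B and 18.4 in SNU-398, were close to those of T1, 19.9 and 16.9. The Sorafenib means were 54.3 and 28.6. Under Lenvatinib the ACSL4 mean was 51.1 in Hep3B, also above T1, and 11.2 in SNU-398, below T1. ACSL4 had 2 guides with a mean of at least 30 counts in each line. It was the only driver of ferroptosis among 24 to pass in Hep3B, while NCOA4, the receptor that sends ferritin to degradation, was the only one in SNU-398, at -3.48. GCLC, the enzyme limiting glutathione synthesis, was higher in Hep3B at 3.07, with 381 and 381 CPM against 326 and 327. Its NormZ in SNU-398 was 0.85. SLC7A11, the cystine transporter of system Xc-, had NormZ values of -0.02 in Hep3B and -0.69 in SNU-398. The mitochondrial superoxide dismutase SOD2 had 1.41 and 2.21, and neither value passed. In SNU-398 the heat shock protein HSPB1 (-2.50) and the mitochondrial glutathione carrier gene SLC25A40 (-2.44) were lower. CUL3, the ubiquitin ligase scaffold that acts with KEAP1 on NRF2, was lower in Hep3B at -2.66, while KEAP1 had -0.03 and -1.78.

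The shared lower genes differed in how many guides carried them. DLX6, a homeobox transcription factor, had 240 and 238 CPM under Regorafenib against 315 and 322 under Sorafenib in Hep3B, and 218 and 210 against 296 and 291 in SNU-398. All 3 of its guides were lower under Regorafenib in both lines, and NormZ was -2.51 and -3.89, with log2 differences of -0.41 ± 0.035 (SE) and -0.46 ± 0.046. DUSP4, a phosphatase that switches off MAP kinases, had 20.5 and 19.8 CPM against 103 and 106 in Hep3B, nearly all from 1 guide, and a NormZ of -2.80. In SNU-398 it had 12.5 and 11.5 CPM against 24.4 and 23.6, and a NormZ of -2.95. FAM3B, a secreted protein of pancreatic islets, had 74.9 and 72.7 CPM against 175 and 173 in Hep3B and 46.4 and 40.9 against 55.6 and 59.0 in SNU-398. The Regorafenib libraries lay below the Sorafenib libraries for all of these, with NormZ values for FAM3B of -2.49 and -2.75.

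The other shared lower genes had low CPM under Regorafenib and few guides with a mean of at least 30 counts. C12orf29 and TES had 1 such guide in each line, and SHISA7 had 1 in Hep3B and 2 in SNU-398. C12orf29 had 1.01 and 1.15 CPM under Regorafenib against 18.1 and 24.6 under Sorafenib in Hep3B, and 0.34 and 1.28 against 12.4 and 16.7 in SNU-398. TES, which encodes the focal adhesion protein testin, had 0.072 and 0 CPM against 10.4 and 10.1 in Hep3B, and 0.26 and 0.57 against 9.12 and 8.86 in SNU-398. SHISA7, an auxiliary subunit of GABA-A receptors in neurons, had 0.80 and 0.77 CPM against 23.2 and 18.9 in Hep3B, and 0.68 and 0 against 7.51 and 9.39 in SNU-398. A library at 0 still allows up to 3 counts, so no fold is given for TES and SHISA7. C12orf29 was low but above 0 in each Regorafenib library, and its fold is not given either. The NormZ values were -3.05 and -3.14 for C12orf29, -2.83 and -2.63 for TES, and -3.18 and -2.56 for SHISA7. For SHISA7 the Hep3B value was 1.13 without its most abundant guide. Of all genes shared in the same direction, only DLX6 still passed in both lines without the most abundant guide of each gene.

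In opposite directions, 8 of the 9 genes were higher under Regorafenib in Hep3B and lower in SNU-398. POMT2, which starts the O-mannose chains of dystroglycan, had 61.5 and 57.5 CPM under Regorafenib against 18.8 and 17.4 under Sorafenib in Hep3B. In SNU-398 it had 36.0 and 39.7 against 55.6 and 56.9. Its NormZ was 3.29 and -2.80, with 85.9% of its counts from 1 guide in each line. POMT2 was the only gene among the 16 passing in both lines that did so under all 7 alternatives tallied for this. The alternative with the libraries of a compound summed was not in that tally. MPEG1, the pore-forming perforin-2 of macrophages, had NormZ values of 3.54 and -2.67. A pair of mitochondrial genes went the same way, MRPL52 of the mitochondrial ribosome (2.72 and -2.36) and the pseudouridine synthase TRUB2 (2.52 and -2.78). SCCPDH, a protein related to saccharopine dehydrogenase, was the 1 gene that was lower in Hep3B, at -6.57, and higher in SNU-398, at 2.75. The remaining genes were CAPRIN2 (2.71 and -2.54), L3HYPDH (2.51 and -2.92), OR52D1 (2.41 and -2.65) and LHFPL4, the last of which was outside the naming rule and is listed here after its value was seen.

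Genes at the extremes in Hep3B mostly did not reach the threshold in SNU-398. TSTA3, the last enzyme of GDP-fucose synthesis, had the highest NormZ, 5.31, with 29.3 and 29.6 CPM under Regorafenib against 0.65 and 1.27 under Sorafenib. FUT7, a fucosyltransferase that uses GDP-fucose, was the next among all genes at 5.06, with 22.2 and 21.6 CPM against 0.47 and 1.03. In SNU-398 both had more CPM under Regorafenib as well, with NormZ values of 0.90 for TSTA3 and 2.32 for FUT7 that did not pass. Below them were GRSF1 (4.42), an RNA-binding protein of mitochondria, the homeobox factor ISX (4.34) and the interferon-induced gene SAMD9 (4.26). At the other end ACTR3C, on 1 counted guide, had -6.67. Among genes with at least 3 well-counted guides SCCPDH was lowest at -6.57, and it passed as higher in SNU-398. Next among these was AP4M1, a subunit of the AP-4 vesicle adaptor, with a NormZ of -5.99. AP4M1 had 142 and 141 CPM under Regorafenib against 967 and 962 under Sorafenib. In SNU-398 it had 868 and 889 CPM against 871 and 869, and the log2 difference there had an interval of -0.06 to 0.09. The serine protease PRSS48 (-5.16), the methyl-lysine reader L3MBTL3 (-4.49) and PACRGL (-4.41) followed in Hep3B.

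In SNU-398 MS4A3, a membrane protein of myeloid cells, had the highest NormZ among genes named by the rule, 3.97, with 13.4 and 13.5 CPM under Regorafenib against 0.19 and 0.77 under Sorafenib. After PSTK came DDN (3.36), PPARGC1A (3.19), the coactivator of mitochondrial biogenesis, and HIAT1 (2.90). Among genes with at least 3 well-counted guides the lowest were TFDP2 (-5.23), the DNA-binding partner of E2F factors, and PPAP2C (-4.84), a lipid phosphate phosphatase. TFDP2 had 12.2 and 11 CPM under Regorafenib against 40.3 and 47.0 under Sorafenib in SNU-398, while in Hep3B its NormZ was 0.69. NEUROG3 (-4.79), MROH2A (-4.62) and FCRL2 (-4.43) were next.

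The receptor kinases that both compounds bind had members passing by NormZ only in Hep3B. Of 18 such genes, 0 were higher and 2 lower there, FLT1 at -2.82 and RET at -2.44, beside 1.29% and 1.76% of all genes. In SNU-398 0 passed in either direction, beside 2.42% of all genes, and 1 was lower by NormZ at an unadjusted p under 0.05. There edgeR called 7 higher and 6 lower, beside 34.2% and 32.1% of all genes. FLT1, a receptor of vascular endothelial growth factor, had 84.6 and 76.5 CPM under Regorafenib against 130 and 128 under Sorafenib in Hep3B. In SNU-398 its NormZ was -0.17. KDR, the main receptor of that family on endothelium, had NormZ values of -0.74 and -0.02. Among 30 genes of the RAS, RAF and MAP kinase pathway, 1 passed, MAPK3 (ERK1) in Hep3B at 2.45, with 55.5 and 57.4 CPM against 33.2 and 31. BRAF had NormZ values of 1.19 and -1.01 and ARAF of -1.55 and -1.93, and neither passed. In the PI3K and mTOR pathway of 31 genes 1 passed, RRAGC, a GTPase that brings mTORC1 to lysosomes, at -2.94 in SNU-398.

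**Figure D5:**
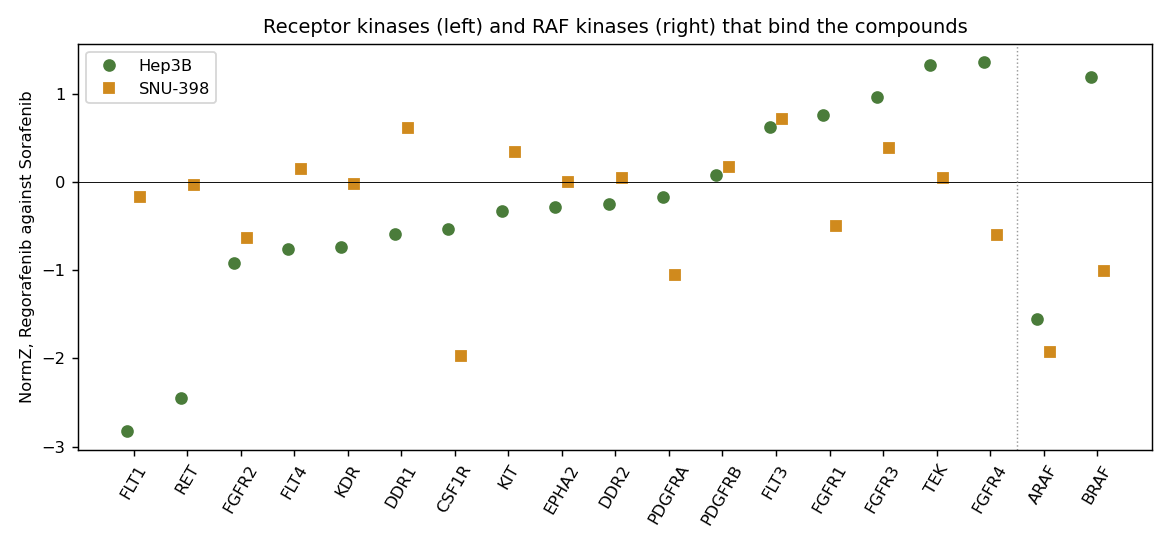
NormZ of Regorafenib against Sorafenib (vertical axis, no unit) for receptor kinases bound by both compounds (left of the dotted line), ordered by their Hep3B value, and for ARAF and BRAF (right), with Hep3B as circles and SNU-398 as squares. FLT1 (-2.82) and RET (-2.44) in Hep3B are the only points that passed.

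Levels of these targets were read from RNA labelled as untreated Hep3B control cells (n = 3, in FPKM). Of 18 receptor kinases, 6 reached a mean of 1 FPKM, among them EPHA2 at 27.4 ± 1.07 (SD), FGFR3 at 7.01 ± 0.50, FGFR1 at 6.55 ± 0.32 and PDGFRB at 3.13 ± 0.16. FLT1 was at 0.003 ± 0.003, and KDR, FLT4, PDGFRA and RET were listed at 0. Both receptor kinase genes that passed in Hep3B were at or near 0 in the RNA labelled Hep3B. ARAF was at 42.0 ± 2.66 and BRAF at 1.39 ± 0.084. PSTK was low, at 0.76 ± 0.082, and GPX4 was at 136 ± 5.72. The hepatocyte markers were nearly absent from this RNA, which goes against its label as an HCC line of hepatocyte origin, with 1 of 8, HNF4A at 3.51 ± 0.29, reaching 1 FPKM, ALB at 0.52 ± 0.14, and AFP, APOA1 and TTR listed at 0. Of the fibroblast markers, COL1A1 was at 3.67 ± 0.32 and COL1A2 at 0.002 ± 0.003. Of the endothelial markers, CDH5 was at 0.76 ± 0.18 and PECAM1 at 0.005 ± 0.009. The blood marker HBB was at 0.048 ± 0.049 and PTPRC was listed at 0.

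Respiratory complex I had the most passing members of the pathway lists in SNU-398. Of its 49 genes, 4 were higher under Regorafenib (NDUFS6 at 2.67, NDUFV3 at 2.66, the assembly factor NDUFAF1 at 2.50 and NDUFA2 at 2.39) and 1 was lower (NDUFB7 at -3.48), with a median NormZ of 0.44 beside 0.054 over all genes. Few guides of these passing genes had a mean of at least 30 counts in SNU-398. NDUFS6, NDUFAF1 and NDUFA2 had 1 such guide each, and NDUFV3 and NDUFB7 had 2 each. At least 3 such guides were left for 6 of the 49 genes. In Hep3B 1 of the 49 passed, NDUFA12 at -2.49, and the median NormZ was -0.072 beside -0.044. Of 51 genes of complexes II to V, ATP5B (2.49) and ATP5I (-3.06), both of ATP synthase, passed in SNU-398 and 0 in Hep3B. In Hep3B 3 were higher and 1 lower by NormZ at an unadjusted p under 0.05. There edgeR called 26 higher and 10 lower of 42 tested, beside 39.8% and 37.5% of all genes. The list members that passed by NormZ made up 14 in Hep3B and 18 in SNU-398 of 463 genes in 21 lists, beside 3.05% and 2.42% of all genes in either direction.

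The other lists had at most 1 passing gene in a line. The retinoblastoma gene RB1 was lower in Hep3B at -3.33, with 3.84 and 2.57 CPM under Regorafenib against 22.0 and 18.7, while in SNU-398 it had 13.1 and 16.3 against 5.51 and 6.74 and a NormZ of 1.06 that did not pass. BCL2L1, which encodes the survival protein BCL-XL, was higher in SNU-398 at 2.45, with 37.4 and 41.2 CPM against 5.32 and 6.45, and overlapped in Hep3B. The uptake transporter SLCO1A2 was higher in SNU-398 at 2.42, the only gene of 20 for drug transport and metabolism to pass. PSAT1 of serine synthesis (-2.39) and the Hippo pathway gene AMOTL1 (-2.66) were lower in Hep3B, and the stress factor DDIT3 (-2.34) and the peroxisome import receptor PEX5 (-2.39) were lower in SNU-398. By NormZ 0 genes passed in either line among the lists for removal of superoxide and peroxide, autophagy, hypoxia sensing and transcription kinases. At most 2 genes a list had an unadjusted NormZ p under 0.05 in a line. Of the 11 to 20 genes a list that edgeR tested, it called between 6 and 13. The share over all genes was 77.3% in Hep3B and 66.4% in SNU-398. Among lists kept for reference, 1 gene was higher and 1 lower of 72 of the cytosolic ribosome in Hep3B, and 1 was higher in SNU-398. Of 39 proteasome genes, 1 was higher and 1 lower in Hep3B and 0 passed in SNU-398, where NormZ had 0 at an unadjusted p under 0.05. There edgeR called 12 higher and 8 lower of 38 tested, beside 34.2% and 32.1% of all genes. Olfactory receptor genes, which these cells are not known to use, gave 4 higher and 6 lower of 337 in Hep3B and 1 higher and 6 lower of 338 in SNU-398. By NormZ 1.29% of all genes were higher and 1.76% lower in Hep3B, and 0.632% and 1.79% in SNU-398.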

How the data were processed

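Guide counts of 32 CRISPR libraries were used as deposited. The authors aligned guide reads with Bowtie2 (version not given in the sources used here) and counted them per guide, and the deposited counts were not normalized. From 88.7% to 98.6% of guide counts in the 8 libraries were even, a share that takes in the zeros, which were 27.9% to 52.8% of guides. A fragment may therefore have been counted more than once. The edgeR intervals rest on the spread between the 2 libraries of a group, which may be technical. The FPKM values of Hep3B RNA, made by the authors with HISAT2 2.0.5 and featureCounts 1.5.0-p3, were read for the 3 control samples only. The submitters' processing notes name the mouse build mm9 for this RNA, although its genes are human. The deposited RNA count table was not used here. Guide sequences were not printed, since the tables hold names and positions with no build stated.

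Guides were grouped by the gene column, and control guides were left out of gene tests. NormZ was computed as DrugZ does it: each library was scaled to 1e+07, a pseudocount of 5 was added, the log2 ratio of Regorafenib to Sorafenib was taken for libraries of the same number, and each guide was divided by the spread in windows of 1000 guides ordered by Sorafenib count. A gene passed at a one-sided normal p under 0.01. Guides, not cultures, are the observations of this test. Summed counts were tested with edgeR 4.0.16 (quasi-likelihood, TMM, filterByExpr, adjusted p under 0.05 by Benjamini-Hochberg) in R 4.3.3, on 2 residual degrees of freedom. The line difference was tested over 64186 shared guides. DESeq2 1.42.0 was an alternative. Other steps used Python 3.11.15, numpy 2.4.6, scipy 1.17.1 and pandas 2.3.3. The NormZ and edgeR gene tests within each line were tried on simulated data. The tests of single guides and of the difference between the lines were not.

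Named genes were up to 12 passing in both lines in the same direction and up to 8 in opposite directions, by the smaller absolute NormZ. Added to these were, in each line, the 5 highest and 5 lowest by NormZ with an edgeR call in that direction and at least 3 guides with a mean of 30 counts, a set of selenium, ferroptosis and kinase genes, and up to 3 members of each list with the smallest p. The compounds, lists and rules were chosen with earlier results of these data known, among them PSTK. SNU-398 Erastin replicate 2, which correlated with the Hep3B day 14 libraries at 0.907 to 0.952 against 0.820 to 0.879 for replicate 1, was left out of the distances between groups and enters only the distance to its own replicate. No label ties same-numbered libraries together beyond the number. In each Regorafenib and Sorafenib group replicate 1 held more counts than replicate 2, by little for SNU-398 Sorafenib. A few list members that entered the counts are not reported here by name.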

Additional observations from a re-analysis of the deposited data

Results flagged for a closer look

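For 9 of 18025 genes (0.0499%) the difference between Regorafenib and Sorafenib was not the same in Hep3B and SNU-398, by the difference of the NormZ values of both lines with Benjamini-Hochberg adjustment at 0.05. The values here are the standardized difference, SNU-398 minus Hep3B, and CPM scaled among the 4 libraries of a line. By edgeR on summed counts 67.2% of genes differed between the lines, so that test singles out few genes. With guides under a mean of 30 counts left out, 0 genes passed by NormZ, while edgeR's count stayed within 1.5 times.

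In 4 genes the difference was positive. SCCPDH had 6.59 (adjusted p = 8.04e-07), with 23.7 ± 2.36 CPM (SD) under Regorafenib and 105 ± 3.70 under Sorafenib in Hep3B against 32.2 ± 3.31 and 16.1 ± 2.11 in SNU-398. All 3 of its guides were lower under Regorafenib in Hep3B and had positive ratios in SNU-398. ACTR3C had 4.91 (adjusted p = 0.00519) and was at 0 CPM in both Regorafenib libraries of Hep3B, where it had 15.5 and 20 under Sorafenib, on 1 counted guide, with no counted guide in SNU-398. The serine protease PRSS48 had 4.86 (adjusted p = 0.00519), with 29.3 ± 0.43 and 137 ± 8.47 CPM in Hep3B against 25.4 ± 3.18 and 19.6 ± 0.36 in SNU-398. RADIL, an effector of the GTPase RAP1, had 4.37 (adjusted p = 0.0276), with 2.66 ± 0.13 and 20.5 ± 0.27 CPM in Hep3B against 33.5 ± 4.52 and 14.6 ± 2.40 in SNU-398.

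In 5 genes the difference was negative. DYNC1H1, the heavy chain of cytoplasmic dynein, had -5.03 (adjusted p = 0.00433), with 18.1 ± 0.77 CPM under Regorafenib and 16.6 ± 0.78 under Sorafenib in Hep3B against 7.37 ± 2.57 and 56.1 ± 2.92 in SNU-398. The calcium-binding protein CIB1 had -4.47 (adjusted p = 0.0276), with 128 ± 0.73 and 90.3 ± 6.55 CPM in Hep3B against 51.8 ± 2.43 and 104 ± 0.91 in SNU-398. MPEG1 had -4.39 and the mast cell carboxypeptidase CPA3 -4.37 (adjusted p = 0.0276 for each). CPA3 had 20.8 ± 0.19 and 9.02 ± 0.74 CPM in Hep3B against 14.6 ± 1.51 and 39.7 ± 1.93 in SNU-398. POMT2 had -4.31 (adjusted p = 0.0328). In these 5 genes the Regorafenib libraries lay above the Sorafenib libraries in Hep3B and below them in SNU-398.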

How the results depend on the processing

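Most counts of passing or called genes stayed within 1.5 times, with the exceptions below. The choice of guides moved most. Without the most abundant guide of each gene, edgeR's quasi-likelihood test called 7646 genes in Hep3B (4194 higher, 3452 lower), and 9 list members passed NormZ in SNU-398. With guides under a mean of 30 counts left out, 7 list members passed in Hep3B, 4 genes passed in both lines in the same direction and 3 in opposite directions, and 0 differed between the lines by NormZ. At a NormZ p under 0.05 those counts were 95 and 89, and a pseudocount of 1 gave 12 in the same direction. Leaving out 1 replicate number of both compounds gave 9 to 11 in the same direction. Windows ordered by the mean of both compounds (in place of Sorafenib) gave 186 higher and 260 lower genes in SNU-398 and 270 and 280 in Hep3B. Counts after adjustment moved more. Against 6 higher and 27 lower genes in Hep3B and 0 and 14 in SNU-398, they were 3 and 68, and 0 and 24, without the most abundant guide. They were 5 and 16, and 5 and 6, with windows by the mean of both compounds, 0 and 10, and 0 and 11, with guides of at least 30 counts, and 2 and 44, and 0 and 20, with a pseudocount of 1. The SNU-398 distance was 0.785 over guides with a mean of at least 100 counts.

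Without the most abundant guide, edgeR log2 differences changed sign for HIAT1 (-0.50) and SHISA7 (3.37) in Hep3B, for KDR (-1.95), L3MBTL3 (4.30), PDGFRB (6.94) and RET (-0.84) in SNU-398, and for the line difference of PSTK (-0.26), and NormZ for SHISA7 in Hep3B (1.13). The edgeR log2 differences printed were limited to genes named outside the list leaders, after these reversals were seen. Over all 103 named genes, 22 of 182 edgeR values were called and changed sign under that choice, and 0 did so under the other 11. The cause was not tested. For NormZ, leaving out the most abundant guide was chosen after seeing the data. Depth limits genes with few counted guides.

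With the replicate number as a block, edgeR called 6107 higher and 5914 lower genes in Hep3B and 6020 and 5648 in SNU-398, and no count moved by over 1.5 times. Same-numbered libraries did not deviate together (r 0.0042 over 25811 guides in Hep3B and 0.0073 over 29793 in SNU-398). The scaled guide counts thus gave no sign of pairing by number.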
